A study of Caenorhabditis elegans with 2 samples.

Results

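The 8 genes described here are the E2F and Rb genes efl-1, efl-2, dpl-1 and lin-35 and the S-phase genes pcn-1, cye-1, cdk-2 and rnr-1 of Caenorhabditis elegans. They are 8 of the 19973 nuclear protein-coding genes of the annotation, and they were selected with the peak values at their promoters already known, so their peak values are a description and no test was made on them. The measurement was ChIP-seq, which sequences DNA crosslinked to a protein, here the product of C34B4.2 carrying GFP and FLAG at its C terminus. The animals were whole mixed-sex L1 larvae of strain OP552, genotype unc-119(tm4063) III; wgIs552, and were collected 6 h after synchronization by starvation that followed bleaching. There was 1 group of 2 biological replicates, all of it carrying the tagged transgene, and no untagged or otherwise treated group was analysed here. The descriptions state that GFP was the target of the precipitation, whereas the antibody label names C34B4.2. The labels do not say in which cells, or how strongly compared with the endogenous gene, the transgene was expressed. In chromatin from whole larvae, strong occupancy in few cells and weak occupancy in many cannot be told apart.

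E2F proteins bind DNA as dimers with a DP partner, and pocket proteins of the retinoblastoma family hold these dimers in a repressive state until cyclin-dependent kinases release them. In C. elegans, EFL-1 and EFL-2 are E2F-type factors, DPL-1 is the DP partner and LIN-35 is the Rb-like pocket protein. EFL-1, DPL-1 and LIN-35 work together with LIN-9, LIN-37, LIN-52, LIN-53 and LIN-54 in a complex named DREAM (DRM in worms), which represses cell cycle and germline genes. Entry into S phase needs cyclin E (cye-1) with its kinase (cdk-2), deoxynucleotides made by ribonucleotide reductase (rnr-1 encodes the large subunit), and the sliding clamp PCNA (pcn-1), which holds DNA polymerases on the template. E2F proteins are known in animals for controlling genes of this kind.

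The DNA under the summits at efl-1 and pcn-1 is shown because these are the only 2 of the 8 genes with a peak that passed the authors' threshold. The DNA at lin-9 is shown as the strongest such peak among the other E2F, Rb and DREAM genes, and the bases before rnr-1 as those of a gene with an E2F-type word but no candidate summit. The sequences come from the RefSeq genome of build WBcel235 (the same sequence as ce11) and run 5′ to 3′ on the strand of the gene, which is the minus strand in each case. Capitals mark matches on either strand to an E2F core word, which was searched for as TTCCCGC and as TTGGCGC and as TTCGCGC and as TTGCCGC, and to the overlapping words ACGCAG and also GACGCA. The intervals are chrV:16965759-16965959 for efl-1, chrIV:4049614-4049814 for pcn-1 and chrIII:8904197-8904397 for lin-9, each with the pooled summit at its centre and 100 bases to either side. For rnr-1 the interval is chrIII:9228799-9228998, the 200 bases before its outermost annotated start. None of these intervals holds an annotated exon.
efl-1: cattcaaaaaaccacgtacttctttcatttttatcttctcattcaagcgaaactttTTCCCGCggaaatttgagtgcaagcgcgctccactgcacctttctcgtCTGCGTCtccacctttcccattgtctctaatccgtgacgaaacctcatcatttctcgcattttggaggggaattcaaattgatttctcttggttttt
pcn-1: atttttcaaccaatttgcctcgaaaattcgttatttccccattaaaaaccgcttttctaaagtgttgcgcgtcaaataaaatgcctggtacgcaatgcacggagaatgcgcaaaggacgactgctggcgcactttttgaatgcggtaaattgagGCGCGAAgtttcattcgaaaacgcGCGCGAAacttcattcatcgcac
lin-9: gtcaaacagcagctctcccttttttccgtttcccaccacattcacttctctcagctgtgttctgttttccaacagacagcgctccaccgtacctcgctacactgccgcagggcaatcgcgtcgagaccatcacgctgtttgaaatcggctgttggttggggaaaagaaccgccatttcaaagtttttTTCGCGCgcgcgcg
rnr-1: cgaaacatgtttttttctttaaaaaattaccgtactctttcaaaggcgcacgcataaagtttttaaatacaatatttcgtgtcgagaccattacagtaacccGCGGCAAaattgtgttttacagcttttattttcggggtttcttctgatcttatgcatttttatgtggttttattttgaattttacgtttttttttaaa

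The authors deposited 30000 candidate peaks for each replicate and for the pooled replicates, and a list of 267 peaks thresholded by the irreproducible discovery rate (IDR), a measure of how repeatable a peak's rank is between replicates. The 267 peaks were ranks 1 to 267 of the pooled list, so that a gene's place in that list follows from its pooled signal. Signal is the authors' own value per peak, and read depth is unknown for both replicates. Its scale differed between the lists. The pooled signal was close to the sum of the replicate signals, with a median ratio of sum to pooled signal of 1.00 over the 264 thresholded peaks that overlapped a candidate in each replicate. Thresholded peaks ran from 112 to 868 with a median of 153, and all pooled candidates ran from 39.5 to 868 with a median of 49.6. Candidates of replicate 1 ran from 24.7 to 428 and those of replicate 2 from 20.1 to 437. A gene was given a peak when the summit lay in its promoter window, which reached 1000 bp upstream and 200 bp downstream from each of its transcript starts.

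A thresholded summit lay in the promoter window of 2 of the 8 genes, efl-1 and pcn-1. Over all protein-coding genes, 276 of 19973 had one (1.38%). A pooled candidate summit of any strength lay in the window of 4 of the 8 genes, namely efl-1, dpl-1, lin-35 and pcn-1, beside 7605 of all genes (38.1%). Candidates in both replicates were present for 3 of the 8, efl-1, lin-35 and pcn-1, beside 4352 of all genes (21.8%). These shares are given as background only, since the 8 genes were selected on the same values. No list held a summit in the windows of efl-2, cye-1 and rnr-1, and cdk-2 had one in replicate 2 alone. The plot of candidate summits by gene shows this contrast between efl-1 and pcn-1 and the other 6 genes.

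**Figure D1:**
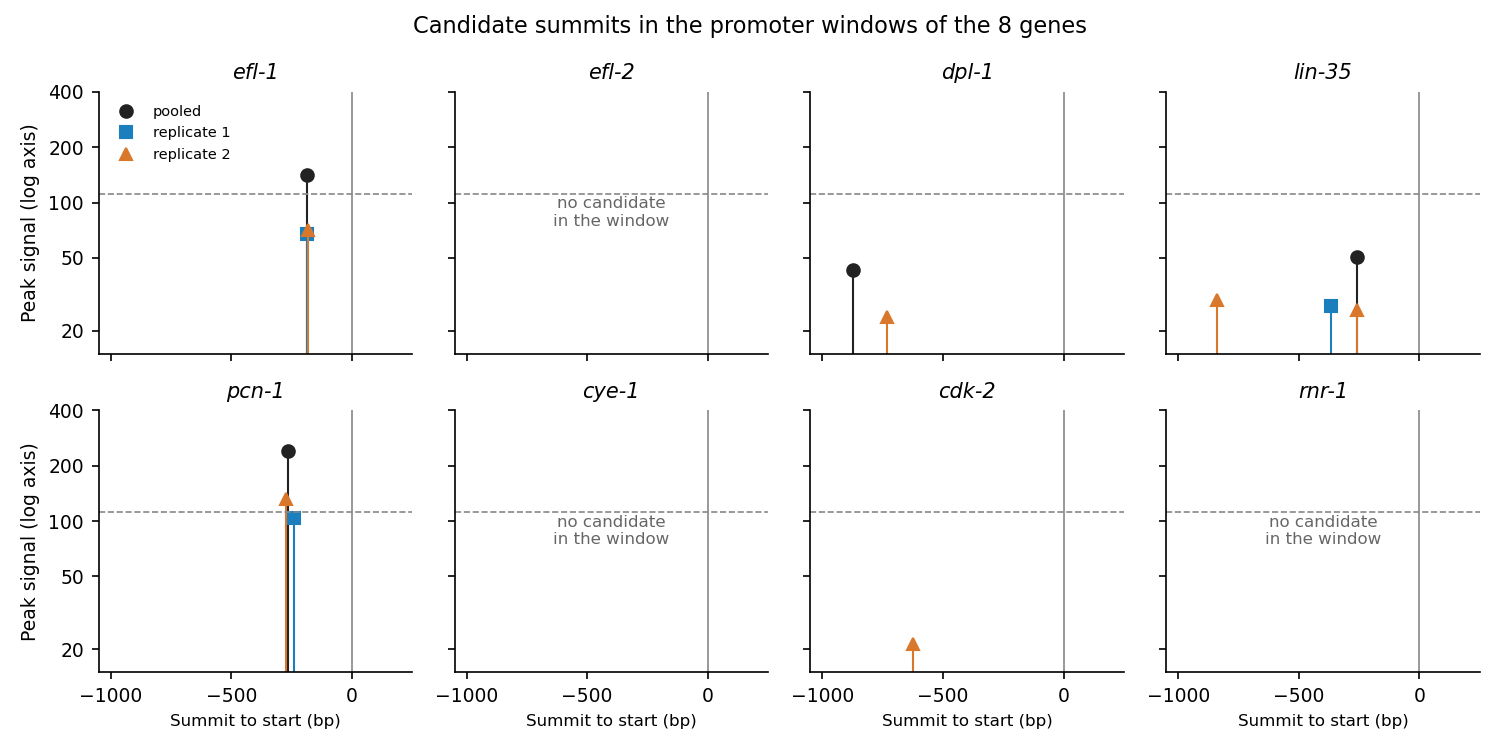
Candidate summits in the promoter windows of the 8 genes, with the distance from the summit to the nearest transcript start in bp on the horizontal axis and the authors' peak signal on a log vertical axis. Circles are the pooled list, squares replicate 1 and triangles replicate 2, the solid vertical line is the transcript start, and the dashed line is the lowest pooled signal of the thresholded list (112). Pooled circles above the dashed line are seen at efl-1 (141) and pcn-1 (240), while those at dpl-1 (43.0) and lin-35 (50.3) lie below it.

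Among the E2F and Rb genes, efl-1 (WBGene00001161, chromosome V, 16958590 to 16965675, minus strand) had the one thresholded peak. The peak spanned 16965674 to 16966043, and its summit lay in intergenic DNA 184 bp upstream of the single annotated start. Its signal was 67.2 in replicate 1, 71.0 in replicate 2 and 141 in the pooled list. The pooled value placed it 162nd of the 267 thresholded peaks, while it was 242nd of the candidates of replicate 1 and 169th of those of replicate 2. The replicate summits lay 4 bp apart, at 184 and 180 bp upstream. The deposited −log10 q, a measure of confidence that is larger for stronger peaks, was 0.461 in replicate 1, 1.49 in replicate 2 and 1.08 in the pooled list. Its range differed between these lists, with highest values of 2.21, 1.73 and 2.1 and medians of 0.293, 0.322 and 0.281. In replicate 1 the value at efl-1 was thus closer to the median of the list than to its highest value. The pooled value lay below the median of the thresholded list, 1.55. The same summit also fell in the window of fbxa-90, which starts on the other strand 955 bp away. Within 5000 bp upstream of the start and down to the end of the gene, the pooled list held 3 candidates at efl-1, of which 2 lay in the gene body, and the one at the promoter was the strongest.

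The Rb-like gene lin-35 (WBGene00003020, chromosome I, 5807709 to 5815637, plus strand) had weak candidates in its window. Its pooled candidate had a signal of 50.3, rank 14240 and a summit 257 bp upstream, close to the median of all pooled candidates. In replicate 1 the single candidate had a signal of 27.5 and lay 368 bp upstream. Replicate 2 held one of 26.0 at 258 bp upstream, within 1 bp of the pooled summit, and another of 29.4 at 840 bp upstream. The strongest candidates of the replicates, 27.5 and 29.4, therefore lay 472 bp apart and were not the same peak. The pooled summit was closer to the start of the neighbouring gene vps-51, at 161 bp, and counting each summit for its nearest gene alone leaves lin-35 without a pooled candidate.

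The DP gene dpl-1 (WBGene00001061, chromosome II, 9169910 to 9172565, plus strand) had a pooled candidate of 43.0 at rank 23904. Its summit lay 872 bp upstream of the start and within a coding exon of the neighbouring gene T23G7.2. Replicate 2 had a candidate of 23.9 at 734 bp upstream, and replicate 1 had none in the window. The nearest thresholded summit was 113088 bp from dpl-1 and 153526 bp from lin-35. The other E2F gene, efl-2 (WBGene00001162, chromosome II, 13406140 to 13411895, plus strand), had no pooled candidate from 5000 bp upstream to its end. Its nearest pooled summit lay 7681 bp upstream with a signal of 44.0, and its nearest thresholded summit was 461176 bp away. Candidates inside the gene were present in single replicates, such as one of 28.8 in replicate 2 at 1055 bp downstream of the start. Over the 7605 genes with a pooled candidate the strongest signal had a median of 52.2 and quartiles of 45.4 and 63.0, so that lin-35 (50.3) lay between the quartiles, dpl-1 (43.0) below the lower one and efl-1 (141) above the upper one.

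Of the S-phase genes, pcn-1 (WBGene00003955, chromosome IV, 4047937 to 4049448, minus strand) had the strongest peak of the 8. The peak spanned 4049529 to 4049898 with the summit in intergenic DNA 266 bp upstream of the start. Signal was 104 in replicate 1, 131 in replicate 2 and 240 in the pooled list. The peak ranked 76th in replicate 1, 49th in replicate 2 and 55th in the pooled list. Its replicate summits were 32 bp apart, at 241 and 273 bp upstream. The −log10 q was 2.21, 1.73 and 2.1 in these lists, in each case the highest value that the list contains, which 81, 136 and 63 peaks shared. No other gene's window held the pcn-1 summit. Of the 196 thresholded peaks with their summit in a protein-coding window, 116 (59.2%) likewise lay in the window of exactly 1 gene. The pooled list held 3 further candidates within 5000 bp upstream and none in the gene body.

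The cyclin E gene cye-1 (WBGene00000871, chromosome I, 6780799 to 6784397, plus strand) had no candidate in its window in any list. Its nearest pooled summit lay inside the gene, 1093 bp downstream of a start, with a signal of 57.5 and rank 8016. Replicate 1 had the same summit at 40.2, and the nearest of replicate 2 was 7736 bp away. For cdk-2 (WBGene00019362, chromosome I, 3410013 to 3416368, plus strand), the kinase partner of cyclin E, the only candidate in the window was one of 21.4 in replicate 2, at 623 bp upstream. Replicate 1 had one of 26.1 just outside the window, 214 bp downstream of a start, and the nearest pooled summit was 3609 bp upstream with 54.8. The ribonucleotide reductase gene rnr-1 (WBGene00004391, chromosome III, 9225339 to 9228798, minus strand) had its nearest pooled summit 1159 bp upstream, just outside the window, with 43.4 at rank 23190. The nearest thresholded summits lay 54708 bp from cye-1, 174184 bp from rnr-1 and 531377 bp from cdk-2. Among these S-phase genes, peaks of thresholded strength near a promoter were thus seen at pcn-1 alone.

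Set against each other, the peak at pcn-1 was 1.55-fold as strong as that at efl-1 in replicate 1, 1.85-fold in replicate 2 and 1.70-fold in the pooled list. Both replicate values of pcn-1 lay above both of efl-1. The strongest candidate at lin-35 was lower again, with efl-1 2.45-fold, 2.41-fold and 2.80-fold above it in replicate 1, replicate 2 and the pooled list, and pcn-1 3.80-fold, 4.47-fold and 4.77-fold above it. Against the median candidate of the same list, efl-1 was 2.16-fold, 2.79-fold and 2.84-fold as strong and pcn-1 3.35-fold, 5.16-fold and 4.84-fold. The order pcn-1, efl-1, lin-35 was therefore the same in each replicate. The values at lin-35 do not belong to 1 position, however. Its strongest candidate lay 368 bp upstream in replicate 1, 840 bp in replicate 2 and 257 bp in the pooled list. Since the genes were selected on these signals, the order is not tested.

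The replicates gave nearly equal signals at efl-1 and somewhat different ones at pcn-1. The log2 ratio of replicate 1 to replicate 2 was −0.08 at efl-1 and −0.33 at pcn-1. Over the 264 thresholded peaks with a candidate in both replicates the ratio had a median of 0.02, quartiles of −0.32 and 0.34, an SD of 0.52 and extremes of −1.52 and 1.49. The difference at efl-1 was small for the list, with 32 of 264 peaks showing a smaller one. At pcn-1 it was near the middle, with 130 of 264 smaller. The summit distance between replicates, 4 bp at efl-1 and 32 bp at pcn-1, compares with quartiles of 6, 17 and 33.2 bp over the same peaks. Summing the replicates gave 0.982 of the pooled signal at each of the 2 genes. The plot of replicate signals shows efl-1 beside the line of equal signal and pcn-1 slightly on the side of replicate 2.

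**Figure D2:**
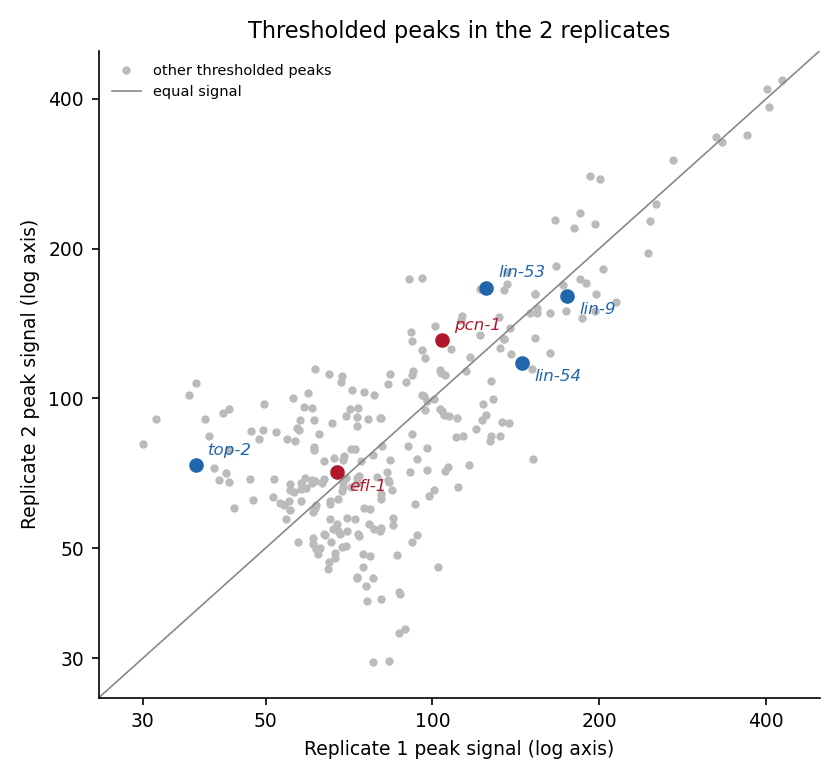
Signal of each thresholded peak in replicate 1 (horizontal) and replicate 2 (vertical), both on log axes in the authors' unit, for the 264 peaks with a candidate in both replicates. Red points are efl-1 (67.2 and 71.0) and pcn-1 (104 and 131), blue points are other thresholded genes of the wider cell cycle and replication list, grey points are the remaining peaks, and the line marks equal signal. The point for top-2 lies far above the line (37.4 and 73.3).

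Among the 276 genes with a thresholded summit, 70 had a signal at least as high as pcn-1 and 179 one at least as high as efl-1, counting each gene itself. The median over these genes was 158, with quartiles of 128 and 240. The peak at pcn-1 thus lay at the upper quartile and that at efl-1 below the median. Its nearest peaks in rank were those at rpl-7A (241, rank 54), a ribosomal protein gene, and puf-9 (239, rank 56), which encodes an RNA-binding protein of the Pumilio family. At efl-1 they were those at rps-28 (141, rank 161), another ribosomal protein gene, and Y18D10A.4 (140, rank 163). At the threshold itself, the last peak inside (rank 267) and the first outside (rank 268) each had a signal of 112. The distances of 184 and 266 bp upstream at efl-1 and pcn-1 lay between the quartiles of these genes, −443 and −132 bp, around a median of −247 bp. Because many worm transcripts receive a spliced leader, the starts in the annotation may lie downstream of where transcription begins.

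**Figure D3:**
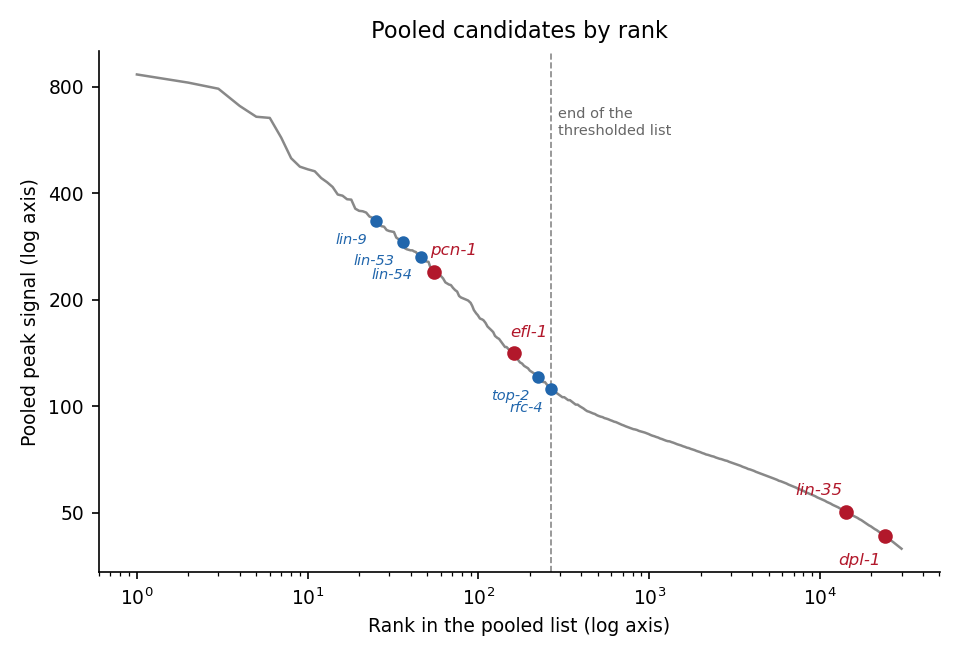
Pooled peak signal (log axis, authors' unit) against rank in the pooled list (log axis) for the 30000 pooled candidates, with the end of the thresholded list at rank 267 as a dashed line. Red points are the genes among the 8 with a pooled candidate and blue points other genes of the wider list with a thresholded peak. The points for pcn-1 (rank 55) and efl-1 (rank 162) lie left of the line and those for lin-35 (rank 14240) and dpl-1 (rank 23904) far to the right.

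The sequences at the summits differed between efl-1 and pcn-1. At efl-1 an E2F core word, TTCCCGC, stood at −44 to −38 from the summit in the direction of the gene, and the overlapping words CTGCGT and TGCGTC, which are ACGCAG and GACGCA on the other strand, stood at 4 to 9 and 5 to 10. A second E2F word of the efl-1 promoter, TTGCCGC, lay at −366 to −360 from the start, outside the printed interval. At pcn-1 the word GCGCGAA, which is TTCGCGC on the other strand, occurred at 54 to 60 and again at 78 to 84 from the summit. The word ACGCAG lay farther away at pcn-1, at −452 to −447 from the start. The lin-9 interval held TTCGCGC at 87 to 93 from its summit. An E2F core word lay within 100 bp of the summit in 48 of the 267 thresholded peaks (18%) and in 7.55% of the 29733 other pooled candidates. ACGCAG was found in 24.7% and 5.16% of them, but this word and GACGCA were taken from earlier results on these same peaks, so the contrast is not independent. A match is a run of letters and does not show binding by an E2F protein.

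E2F words were present at both genes with a thresholded peak and also at 2 of the 6 without one. In the 500 bp upstream of the outermost start, efl-1, pcn-1, cdk-2 and rnr-1 held at least 1 E2F core word, whereas efl-2, dpl-1, lin-35 and cye-1 held none. At cdk-2 the words were GCGGCAA at −434 to −428 and GCGGGAA at −86 to −80, and at rnr-1 GCGGCAA at −98 to −92. On the other strand GCGGCAA reads as TTGCCGC and GCGGGAA as TTCCCGC. Over all protein-coding genes 3034 of 19973 (15.2%) held such a word in the same interval, and over the 276 genes with a thresholded summit 67 (24.3%). Mean GC content of the interval was 34.1% and 36.3% in these 2 sets, and the difference in words was not tested. The words TTTGAA and TTCGAA of the CHR element, a site of the DREAM complex, were found on either strand in 86.4% of the intervals of all protein-coding genes and do not separate genes.

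Base composition at efl-1 and pcn-1 lay within 1 SD of the mean of thresholded peaks. Within 100 bp of the summit GC content was 42.3% at efl-1 and 44.3% at pcn-1, beside 44.6% ± 7.23 (SD, n = 267) for thresholded peaks and 39.2% ± 6.49 (SD, n = 29733) for the other pooled candidates. At the weak candidates it was 36.3% for lin-35 and 24.9% for dpl-1. In the 500 bp upstream of the start, GC content of the 8 genes ran from 25% at efl-2 to 35.8% at efl-1 and pcn-1, beside 34.1% ± 4.75 (SD) for all genes.

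A wider list of 83 genes of the E2F, Rb and DREAM group, of G1/S control, of replication origins, of DNA synthesis and of nucleotide supply, which includes the 8, placed these values in their pathways. The group named G1/S control also held regulators of mitosis, such as B-type cyclins and their kinase, so its values are not those of G1/S genes alone. Of the 83 genes, 82 matched the annotation, and sld-3 did not. A thresholded summit was present at 7 of the 82 (8.54%, beside 1.38% of all genes), a pooled candidate at 42 (51.2%, beside 38.1%) and a candidate in both replicates at 36 (43.9%, beside 21.8%). Without the 8 genes the counts were 5 of 74 (6.76%) and 38 of 74 (51.4%). The strongest pooled signal per gene had a median of 58.0 over the 42 genes, beside 52.2 over the 7605 genes with a candidate. The list was chosen with results of these data known, and its counts were not tested.

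In the E2F, Rb and DREAM group 4 of 10 genes had a thresholded summit (40%, beside 1.38% of all genes) and 8 of 10 a pooled candidate (80%, beside 38.1%). The median of their strongest pooled signals was 97.3, beside 52.2 over all genes with a candidate, but no gene lay near 97.3. Those with a thresholded summit ran from 141 (efl-1) to 335 (lin-9). Those with a pooled candidate below the threshold ran from 43.0 (dpl-1) to 53.9 (efl-3, a further E2F-type gene). Besides efl-1 the genes with a thresholded summit were lin-9, lin-53 and lin-54, all with stronger peaks than efl-1. The peak at lin-9 had a pooled signal of 335 (rank 25), with 175 and 161 in replicates 1 and 2, summits 3 bp apart and 166 bp upstream. At lin-53, which encodes a histone-binding protein of the RbAp48 family, the peak had 291 (rank 36), with 125 and 167 in the replicates, 218 bp upstream. That summit also lay 249 bp upstream of nra-2. At lin-54, which encodes a DNA-binding subunit of DREAM, the peak had 265 (rank 46), with 145 and 118, 388 bp upstream. The same summit lay 5 bp from the start of rpl-12, a ribosomal protein gene, and by nearest start it belongs to rpl-12. Of the 4 E2F, Rb and DREAM genes with a thresholded summit, the peaks at efl-1 and lin-9 were thus the ones closest to that gene and not shared with a closer or similarly near neighbour.

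In DNA synthesis, 3 of 20 genes had a thresholded summit (15%, beside 1.38% of all genes) and 12 of 20 a pooled candidate (60%, beside 38.1%), with a median signal of 55.8 beside 52.2. After pcn-1 came top-2, encoding topoisomerase II, with 121 (rank 222), 37.4 in replicate 1 and 73.3 in replicate 2, a log2 ratio of −0.97. Its summit was 261 bp upstream of top-2 and 99 bp upstream of npp-3. The third was rfc-4, a subunit of the clamp loader that places PCNA on DNA, with 112 at the last thresholded rank, 267. Replicate 1 gave this peak a signal of 82.4, whereas replicate 2 lacked a candidate there, and the summit, 171 bp upstream of rfc-4, lay within cel-mir-5549 and 370 bp upstream of eef-1A.1. Only pcn-1 among these 3 had a peak among the strongest 267 candidates of each replicate taken alone.

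No gene of the groups named G1/S control (0 of 25), replication origins (0 of 23) or nucleotide supply (0 of 4) had a thresholded summit in its window. With 1.38% of all genes having one, a count of 0 in groups of this size is near the background and is no result about these roles. Pooled candidates were present at 8 of 25 (32%), 13 of 23 (56.5%) and 1 of 4 (25%) of them, beside 38.1% of all genes, with a median strongest signal of 49.9 for G1/S control and 67.0 for origins and the value 50.8 for the one nucleotide gene. The 5 strongest genes below the threshold were rpa-2, mcm-3, orc-1, mcm-10 and mcm-4. The gene rpa-2, for a subunit of the single-strand binding protein RPA, had 108 at rank 295 with its summit at −743 bp, and the strongest candidates in its window were 59.8 at −727 bp in replicate 1 and 52.8 at −578 bp in replicate 2. The origin recognition gene orc-1 had 86.2 at rank 798 with its summit 113 bp downstream of a start. The strongest candidate of replicate 1 in that window was one of 74.1 at 172 bp downstream, while that of replicate 2, with 35.5, lay at −419 bp and was a different peak. The helicase genes mcm-3 and mcm-4 had 88.3 at rank 705 and 81.4 at rank 1136, and mcm-10, for a replication fork factor, 82.0 at rank 1089. Their strongest candidates in replicates 1 and 2 were 28.7 and 37.8 (mcm-3), 44.6 and 27.3 (mcm-4), and 30.3 and 50.5 (mcm-10). At each of these genes the summits of the replicates lay at different positions. All 5 lay below efl-1 in pooled signal, as the plot of the wider list shows.

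**Figure D4:**
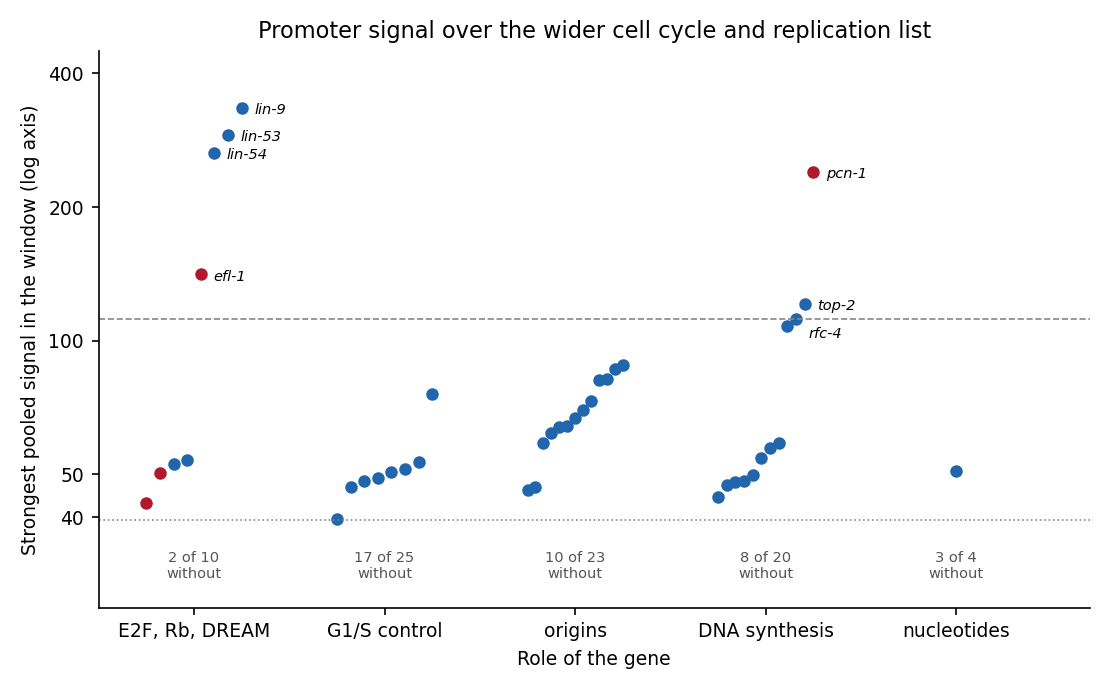
Strongest pooled signal in the promoter window (log axis, authors' unit) for the 42 genes of the wider list with a pooled candidate, by role. Red points belong to the 8 genes and blue points to other genes, the dashed line is the lowest thresholded signal (112), the dotted line the lowest pooled candidate (39.5), and the grey text gives the genes without a candidate in the window. Points at or above the dashed line carry the gene's name and belong to the E2F, Rb and DREAM group or to DNA synthesis.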

How the data were processed

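GFP-tagged C34B4.2 was profiled by ChIP-seq in 2 biological replicates of 1 group, and replicate numbers came from the labels. The authors deposited peak lists in the ce10 and ce11 builds, and the accompanying descriptions list a control library for every candidate file. No source used here gives the aligner, peak caller, IDR threshold or signal normalization. The deposited columns used were the peak signal, whose scale is the authors' own, the −log10 q, and the summit position given as an offset, another number set by the authors. Depth is unknown, so no interval could be given. The ce10 lists were not used.

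Summits of the ce11 lists were placed against transcript starts of Ensembl release 115 (WBcel235) with Python 3.11.15, numpy 2.4.6 and pandas 2.3.3. The mitochondrial genome was left out. Distances are signed in the direction of the gene, negative upstream. Replicate signals at thresholded peaks are those of the overlapping candidate, and the strongest in the window elsewhere. Motifs were searched on both strands, in the 500 bp upstream of the outermost start and within 50 or 100 bp of summits. On simulated data, 200 of 200 placed summits were recovered.

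The 8 genes, the wider list, the motifs and the settings were chosen with earlier results of these data known. Named beyond the 8 were every gene sharing a summit with them, the wider-list genes with a thresholded summit and the 5 strongest others, and the peaks next in rank to efl-1 and pcn-1. Genes sharing the summits of wider-list genes, T23G7.2, efl-3 and sld-3 were named after their values were seen. Alternatives changed the window, the start used, the threshold, the overlap rule, the replicate and the scaling. No p-value was computed.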

Additional observations from a re-analysis of the deposited data

How the results depend on the processing

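The 9 results were recomputed under 48 alternatives in all, of which 41 stayed within a set tolerance and 7 moved. Several alternatives picked the same peak again and so say little about stability. The other window sizes kept pooled signals of 141 at efl-1 and 240 at pcn-1. Matching replicate candidates by overlap or by nearest summit kept log2 ratios of −0.08 and −0.33. For counts the tolerance was 1.5 times the reported count. For a pooled signal it was the SD of the 2 replicate signals. For a log2 ratio it was the SD of that ratio over the thresholded peaks (0.52), which is wide beside the ratios at efl-1 and pcn-1. Reversal of a result was not assessed. Restricting the thresholded list to the peaks above its middle rank left 1 of the 8 genes (pcn-1), 4 of the wider list (lin-9, lin-53, lin-54 and pcn-1) and 149 of all genes with a summit. Using the strongest 267 candidates of 1 replicate in place of the thresholded list kept efl-1 and pcn-1 in each case, with 6 to 7 genes of the wider list and 238 to 274 of all genes. Replicate 1 alone lost top-2 and gained orc-1, and replicate 2 alone lost rfc-4. Leaving out a replicate moved the signal to 67.2 to 71.0 at efl-1 and to 104 to 131 at pcn-1, since pooled signal is about the sum of the replicates. Counting a summit for the nearest gene alone removed lin-54 and top-2 from the wider list, and lin-35 from the genes with a pooled candidate. With any overlap of peak and window, or with 2000 bp upstream to 500 bp downstream, rnr-1 gained a pooled candidate and cdk-2 candidates in both replicates, and with 500 bp upstream dpl-1 lost its own. Dividing signals by each replicate's median at thresholded peaks gave log2 ratios of −0.04 at efl-1 and −0.29 at pcn-1. No paired analysis was possible because there is 1 group. With 2 replicates and unknown depth, counting error on a single peak could not be separated from differences between animals.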
